A study of Mus musculus with 6 samples.

Results

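Malat1, Neat1, H19, Meg3, Kcnq1ot1, Gas5, Snhg1, Snhg12, Snhg8 and Epb41l4aos are long noncoding RNAs, that is, long transcripts not known to act through a protein product. The 10 genes were taken as a named list, and all 10 were among the 22310 genes of the deposited expression table. RNA was sequenced from primary MMTV-PyMT mouse mammary tumor cells, in which the MMTV promoter drives the polyoma middle T oncogene in mammary epithelium. The metastasis-initiating cells (MICs) were the Lin-CD24+CD90+ fraction and the non-MICs the Lin-CD24+CD90- fraction, with 3 libraries of each, numbered 1 to 3 in both. Both populations came from tumors of FVB/N mice carrying the transgene, are labelled WT for genotype, and were depleted of Ter119+, CD31+ and CD45+ cells. They were cultured overnight, before sorting, in DMEM/F12 with 2% FBS, 10 µg/ml insulin and 20 ng/ml hEGF, with no other treatment. The ages of the mice are not in the labels used here. The labels do not say whether libraries of the same number came from the same tumor, and such libraries are called a pair below. Where the replicates are not separate tumors, the p-values measure only the spread between these samples.

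The list joins 3 kinds of long noncoding RNA. Malat1 and Neat1 are abundant nuclear RNAs made from neighboring genes, Malat1 residing in nuclear speckles, where splicing factors gather, and Neat1 forming the scaffold of paraspeckles, nuclear bodies built with RNA-binding proteins. H19, Meg3 and Kcnq1ot1 are imprinted, which means that only the maternal copy (H19, Meg3) or the paternal copy (Kcnq1ot1) is normally transcribed. Gas5, Snhg1, Snhg12, Snhg8 and Epb41l4aos host small nucleolar RNAs (snoRNAs), which guide chemical modification of ribosomal RNA and are released from the introns, while several of the spliced host transcripts are known to be degraded by nonsense-mediated decay.

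In the limma and DESeq2 fits over all 6 libraries, none of the 10 genes was called as differing between MICs and non-MICs. The limma fit called 0 of the 10, against 0% of all 22310 genes at an adjusted p-value of 0.05, and 322 genes had an unadjusted p-value below that level. With the replicate number as a block, limma again called 0 members, against 0.13% of all genes. In that fit 2501 genes had an unadjusted p-value below 0.05. The limma fit without the block counts differences between replicate numbers as spread. It did not call even the gene of the CD90 sorting marker, so its 0 says little about the members. DESeq2 called 0 members without the block, against 0.00452% of the 22134 genes with an adjusted p-value. With the block it called 0 of the 9 members that had one, Meg3 having none, against 0.889% of 14957 genes. The edgeR fit called 0 members without the block, against 0% of all genes. With the block it called 1, Neat1, against 1.41%, as described below. For each of the 10 genes the ranges of the MIC and non-MIC libraries overlapped, and 6.24% of all genes had groups that did not overlap. None of the 10 was higher in MICs in all 3 pairs and none was lower in all 3, whereas 12.5% of all genes were higher in all 3 and 18.8% were lower in all 3. Of the members, 5 had a log2 fold change above 0, and the median over the list was 0.0033, beside -0.04 over all genes. The members differed more between pairs than between the populations. Malat1, Neat1, Kcnq1ot1, Gas5 and Snhg1 were lower in the MIC library of pairs 1 and 3 and higher in that of pair 2, an order that 15.9% of all genes shared and that was chosen for description after the values were seen. Among the 12765 genes with at least 10 reads in every library, 15.6% had this order.

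**Figure D1:**
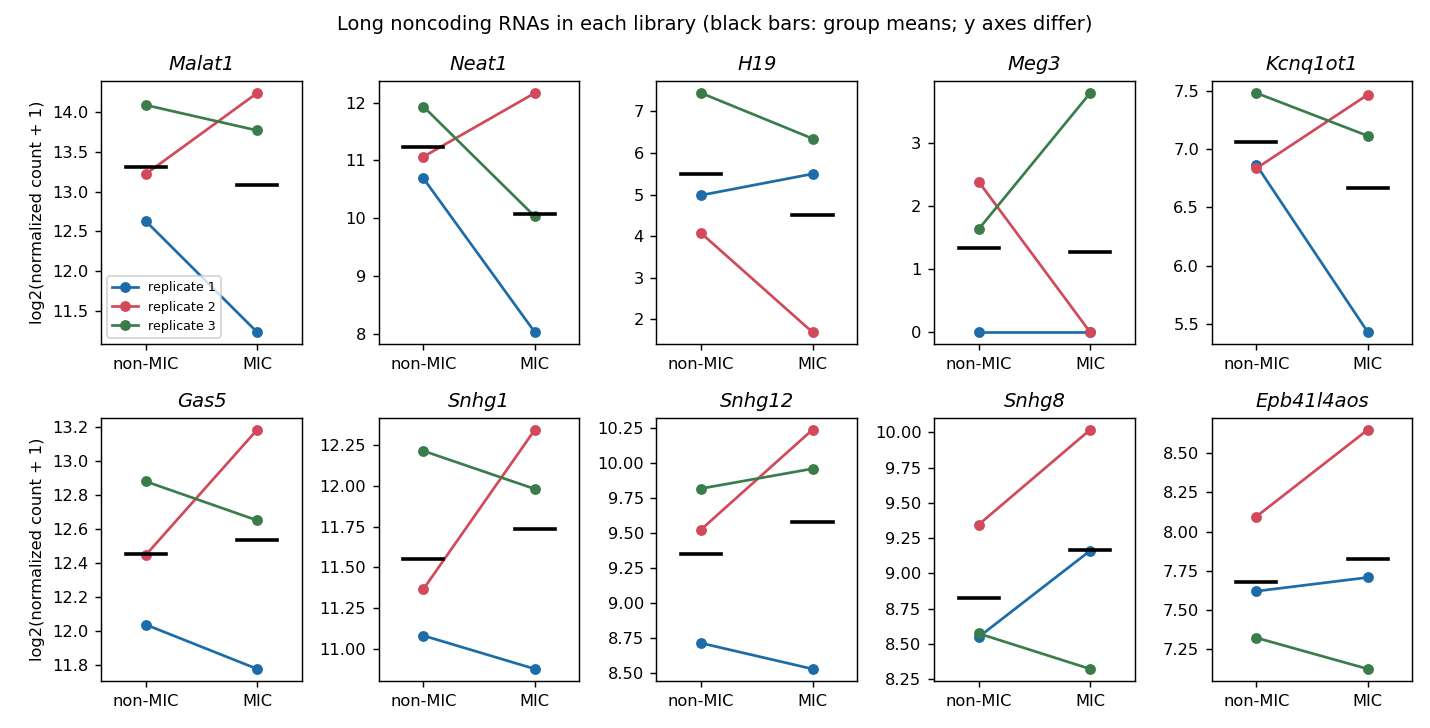
Level of each long noncoding RNA in each library, as log2(normalized count + 1) on the y axis, which differs between panels. Lines join the non-MIC and MIC library of one replicate number, black bars are the means of 3 libraries, and in every panel the MIC and non-MIC values overlap.

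Malat1 (chr19:5795690-5802672, minus strand, GRCm38) is an abundant, mostly unspliced nuclear transcript that is dispensable for viability in mice. Its normalized counts, scaled by the authors to the same total in every library, were 2402, 19406 and 13994 in MIC replicates 1, 2 and 3. In non-MIC replicates 1, 2 and 3 they were 6346, 9561 and 17467. MIC 1 was the lowest of the 6 libraries and MIC 2 the highest, so that the MICs spanned the whole range of the non-MICs. Malat1 was 2.64-fold lower in MICs in pair 1, 2.03-fold higher in pair 2 and 1.25-fold lower in pair 3. The log2 fold change was -0.23 (SE 0.76, limma adjusted p = 1), and with the block its SE was 0.32 (adjusted p = 0.807).

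Neat1 (chr19:5824708-5845478, minus strand) lies 22035 bases from Malat1 and varied over a wider range. Its normalized counts were 260, 4593 and 1044 in MIC replicates 1 to 3 and 1651, 2138 and 3903 in non-MIC replicates 1 to 3. As with Malat1, MIC 1 was the lowest library and MIC 2 the highest, 17.7-fold apart. Neat1 was 6.35-fold lower in MICs in pair 1, 2.15-fold higher in pair 2 and 3.74-fold lower in pair 3. The log2 fold change was -1.15 (SE 0.93, limma adjusted p = 1). With the block, limma gave an SE of 0.48, an unadjusted p of 0.032 and an adjusted p of 0.423.

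Neat1 was the only member that any fit over all 6 libraries called, and that call depended on how the spread was estimated. The quasi-likelihood test of edgeR on recovered reads with the block gave a log2 fold change of -1.21 (adjusted p = 1.96e-05), in a fit that called 1.41% of all genes and 0.372% as lower. That fit took the spread wholly from the other genes (its prior degrees of freedom were infinite), while the pair differences of Neat1 itself averaged -1.15 ± 1.99 (SD, n = 3). The same test with a robust prior, added after the values were seen, gave an adjusted p of 0.866, DESeq2 with the block gave 0.615, and edgeR without the block did not call the gene. Without pair 2, the blocked limma fit gave -2.28 (adjusted p = 0.000831), with the only pair that ran the other way left out. The difference in Neat1 therefore rested on pairs 1 and 3 and is not counted here as a difference between the populations.

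The ratio of Neat1 to Malat1 was 0.108, 0.237 and 0.0746 in MIC replicates 1 to 3 and 0.260, 0.224 and 0.223 in the non-MICs. The non-MIC ratios lay close together, and MIC 2 lay among them while MIC 1 and MIC 3 lay below. On the log2 scale the ratio was lower in MICs by a mean of 0.92, with pair differences of -1.27, 0.08 and -1.58. An exact two-sided permutation test, which took the groups as independent and ignored the replicate numbers, gave p = 0.3. The smallest p that 3 against 3 libraries allow is 0.1.

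Of 10 genes for paraspeckle proteins, which bind Neat1 or its processing factors, limma called 0 with or without the block. Their median log2 fold change was -0.12. Sfpq, Nono, Rbm14 and Cpsf6 were lower in MICs in all 3 pairs, with log2 fold changes between -0.43 and -0.23. Of all genes 18.8% were lower in all 3 pairs, and of protein-coding genes 23.4%. Pspc1, Tardbp, Hnrnpk, Nudt21 and Matr3 were higher in 1 or 2 of the pairs and lower in the rest. Unlike Neat1, the protein genes named here kept within -0.73 and 0.42 on the log2 scale in every pair.

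**Figure D2:**
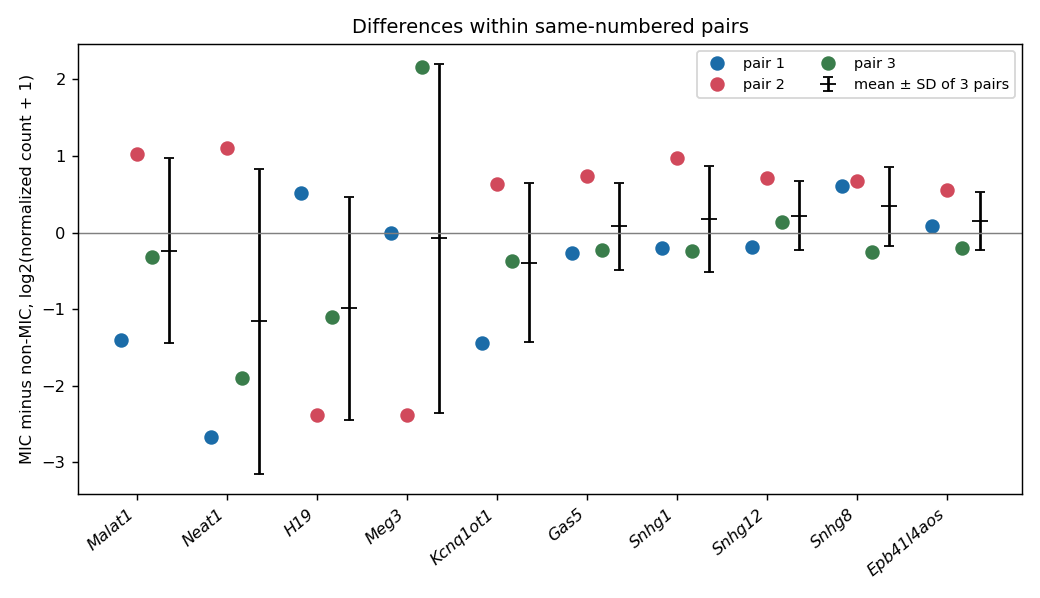
Difference between the MIC and the non-MIC library of each pair, in log2(normalized count + 1), for the 10 long noncoding RNAs, with the mean of 3 pairs. Neat1 runs from -2.66 in pair 1 to 1.10 in pair 2, and no gene has all 3 points on one side of 0.

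H19 (chr7:142575529-142578143, minus strand) is a maternally expressed RNA of fetal and growing tissues and the precursor of the microRNA gene Mir675 within it. Its normalized counts were 44.2, 2.22 and 80.5 in MIC replicates 1 to 3, from 41, 2 and 119 reads. The non-MIC values were 30.7, 15.8 and 173, from 29, 15 and 247 reads. The libraries of replicate 2 were the lowest in both populations and those of replicate 3 the highest, so that H19 differed more between replicate numbers than between MICs and non-MICs. In pair 2 the MIC to non-MIC ratio was 0.140, with an exact 95% interval from counting of 0.0156 to 0.604. In pair 3 it was 0.465 (0.370 to 0.580), and in pair 1 H19 was 1.44-fold higher in MICs. The log2 fold change was -0.99 (SE 1.36, limma adjusted p = 1), and 0.475 was the adjusted p with the block. These intervals cover counting error only.

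Igf2, the paternally expressed growth factor gene that shares enhancers with H19, was seen with 0 to 2 reads in each library, and at this depth no difference was detectable.

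Kcnq1ot1 (chr7:143203458-143296549, minus strand) is a long, mostly unspliced antisense RNA from within Kcnq1 that silences neighboring genes on the paternal chromosome. Its normalized counts were 42.1, 176 and 137 in MIC replicates 1 to 3 and 115, 113 and 177 in non-MIC replicates 1 to 3. MIC 1 stood below the other 5 libraries, which lay within 113 and 177. The differences were -1.43, 0.63 and -0.37 on the log2 scale in pairs 1, 2 and 3. The fold change was -0.39 (log2, SE 0.60, limma adjusted p = 1), and with the block the adjusted p was 0.691.

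Among the genes around Kcnq1ot1, 1 (Slc22a18) shared its order of the pairs. Of the 9 neighbors examined, which include its known silencing targets, limma called 0 with or without the block, and their median log2 fold change was -0.07. Cdkn1c, an inhibitor of cyclin-dependent kinases and a main target of the silencing, had differences of 1.43, -0.71 and 0.43 in pairs 1, 2 and 3, opposite in sign to Kcnq1ot1 in each. Of the 9 genes, 3 had that order (Cdkn1c, Phlda2 and Nap1l4), beside 6.92% of all genes. The pair 3 difference of Phlda2 was only 0.0046, and those of Nap1l4 in pairs 1 and 3 were 0.061 and 0.018. A part of Kcnq1ot1 in this order was not tested. Phlda2, a growth-restraining gene of the placenta, had a log2 fold change of 0.08. Slc22a18 was at -0.34, Kcnq1, the potassium channel gene that Kcnq1ot1 overlaps, at -0.12, and Osbpl5 at -0.25. Tssc4, Nap1l4 and Cd81 lay between -0.09 and 0.00. Ascl2 had 2 to 9 reads per library, too few for a fold change to be read. Whether the counting used strand is not given in the sources used here, so reads of Kcnq1ot1 and Kcnq1 may not be wholly separate.

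Meg3 (chr12:109541001-109571726, plus strand), a maternally expressed RNA with growth-restraining activity, was nearly absent. It had 0, 0 and 19 reads in MIC replicates 1 to 3 and 0, 4 and 3 reads in non-MIC replicates 1 to 3. The library with 19 reads was MIC 3, the deepest of the 6 at 51759769 recovered reads. Non-MIC 3, with 3 reads of Meg3, was the next deepest at 49904738. The pair 3 ratio was 6.11, with an exact 95% interval of 1.80 to 32.2 from counting, and the other pairs were at or near 0 in both populations. A count of 0 allows up to 3 reads, which corresponds to a normalized count of 3.23 in MIC 1. Rian, the maternally expressed RNA next along the same locus, had 1, 9 and 35 reads in the MICs and 2, 3 and 5 in the non-MICs, with its highest count again in MIC 3. The fitted log2 fold changes, -0.08 for Meg3 and 1.09 for Rian, depend on the pseudocount at such counts.

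Of 17 other imprinted genes in the table, limma called 0 with or without the block, and their median log2 fold change was -0.16. Only Peg3, a paternally expressed zinc finger gene, was called by edgeR with the block, as lower in MICs.

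The 5 snoRNA hosts of the list were more even than the members above, each over a 2.66-fold to 3.28-fold range. The other snoRNA hosts were not all so, Snhg3 spanning 2.03-fold and Snhg11 69.5-fold. Gas5 (chr1:161034422-161038539, plus strand, opposite Zbtb37) has 10 annotated snoRNA genes within it, and its spliced RNA accumulates when growth slows. Its normalized counts were 3503, 9304 and 6426 in MIC replicates 1 to 3 and 4199, 5576 and 7534 in non-MIC replicates 1 to 3. MIC 1 was again the lowest library and MIC 2 the highest, over a 2.66-fold range. For Gas5 the log2 fold change was 0.08 (SE 0.38, limma adjusted p = 1).

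Snhg1 (chr19:8723475-8726443) has 8 snoRNA genes within it. It stood at 1881, 5194 and 4038 in the MICs and at 2167, 2639 and 4747 in the non-MICs, in replicates 1 to 3. The same libraries were lowest and highest as for Gas5, and the ratio of Snhg1 to Gas5 kept between 0.473 and 0.630 in all 6. The Snhg1 log2 fold change was 0.18 (SE 0.44).

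Snhg12 (chr4:132308623-132311024) has 5 snoRNA genes. Its normalized counts were 368, 1205 and 993 in the MICs and 418, 734 and 900 in the non-MICs. Both libraries of replicate 1 were the lowest of their population, and pair 2 had the widest gap, 1.64-fold. For Snhg12 the log2 fold change was 0.22 (SE 0.50).

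Snhg8 (chr3:123507552-123508404, minus strand) has a single snoRNA gene, Snora24. It stood at 571, 1037 and 319 in the MICs and at 374, 650 and 380 in the non-MICs. It was higher in MICs in pairs 1 and 2, by 1.53-fold and 1.60-fold, and 1.19-fold lower in pair 3. Here replicate 3, not replicate 1, held the lowest MIC library. Snhg8 had a log2 fold change of 0.34 (SE 0.46).

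Epb41l4aos, on chromosome 18, is named for the strand opposite Epb41l4a, although no protein-coding gene of that strand overlaps its annotated span. Its normalized counts were 208, 400 and 139 in the MICs and 196, 273 and 159 in the non-MICs. As for Snhg8, MIC 2 was the highest library and MIC 3 the lowest. Its log2 fold change was 0.15 (SE 0.46). Its intronic snoRNA, Gm23639, was in the table with 4 to 11 reads per library, and no snoRNA gene within the other hosts was in the table. For Snhg1, Snhg12, Snhg8 and Epb41l4aos the limma adjusted p was 1, and with the block the values for the 5 hosts lay between 0.558 and 0.896.

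All 5 hosts were higher in MICs in pair 2, with a median log2 difference of 0.71, beside 0.04 over all genes. Their medians were -0.18 in pair 1 and -0.23 in pair 3. The 13 other snoRNA hosts in the table were all higher in the MIC library of pair 2 (12 of 13 after rescaling by TMM factors, which assume that most genes do not change), with a median of 0.94, beside 53.5% of all genes (44.0% under TMM). In pairs 1 and 3 their medians were -0.30 and -0.42. Of these 13, 9 had the order low, high, low over pairs 1, 2 and 3. TMM rescaling lowered that number to 7, left it at 5 for the members, and lowered the share of all genes to 10.2%. Under TMM the pair 2 median of the 5 member hosts was 0.61.

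Among the other hosts Snhg18 and Snhg10 had the highest log2 fold changes, 1.02 (SE 0.58) and 0.58 (SE 0.91). Snhg11 and Snhg14 had the lowest, -0.80 (SE 1.58) and -0.39 (SE 0.53). Snhg10 had 6 to 35 reads per library. Snhg14, the imprinted host of the Prader-Willi region snoRNAs, followed the order of the pairs seen for Neat1, with differences of -1.28, 1.07 and -0.96. Limma called 0 of the 13 with or without the block.

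Several snoRNA hosts, Gas5 among them, are known to belong to the 5′ terminal oligopyrimidine class of genes, whose RNAs start with a C followed by a run of pyrimidines, as do RNAs for ribosomal proteins. To show how far the members carry this start, 30 bases around annotated RefSeq starts (GRCm38.p6) are given 5′ to 3′, with 10 bases before the start and 20 from it, and with the C and its run of at least 4 pyrimidines in capitals. Malat1 is given for contrast.
Gas5 (chr1:161035156-161035185, plus strand): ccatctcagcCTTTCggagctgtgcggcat
Snhg8 (chr3:123508317-123508346, minus strand): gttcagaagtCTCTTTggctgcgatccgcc
Snhg12 (chr4:132308668-132308697, plus strand): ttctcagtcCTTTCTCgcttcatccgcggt
Snhg1 (chr19:8723477-8723506, plus strand): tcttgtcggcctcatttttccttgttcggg
Malat1 (chr19:5802653-5802682, minus strand): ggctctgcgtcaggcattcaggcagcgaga
The run began exactly at the start in Gas5, at the downstream one of its annotated starts, and in Snhg8. In Snhg12 its C lay 1 base upstream of the start. Snhg1 had a longer stretch of pyrimidines within the window but no run within 2 bases of the start. On the strand that reads as the RNA does, a C with at least 4 pyrimidines stood at 2.51% of all 32851 promoters' starts. It stood within 2 bases of 8.96%, a width chosen after the sequences were seen. For 67 promoters of ribosomal protein genes the shares were 19.4% and 31.3%. Of 5 promoters of 4 member hosts, Gas5 counting with both its starts and Epb41l4aos having no entry, 2 had the run at the start and 3 within 2 bases. Of 15 promoters of the other snoRNA hosts, 1 had it at the start and 3 within 2 bases (6.67% and 20%). The absence of a run says only that these letters are not at the annotated start.

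Ribosomal protein genes, which share this kind of start, had another order of the pairs. The 77 measured had a median log2 fold change of 0.33, with medians of 0.47, 0.59 and -0.07 in pairs 1, 2 and 3, and limma called 0 with or without the block. In pair 1 the median of ribosomal protein genes was thus above 0 and that of the hosts below, although 2 of the 5 member hosts (Snhg8 and Epb41l4aos) and 4 of the 13 others were higher in MICs there. Of the 77 genes, 2 had the low, high, low order of the 5 members.

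The 10 genes of nonsense-mediated decay factors, the pathway known to degrade Gas5 and several other host transcripts, had a median log2 fold change of -0.30. Limma called 0 of them with or without the block. In all 3 pairs 8 of the 10 were lower in MICs, beside 18.8% of all genes and 23.4% of protein-coding genes, and under TMM 7 of the 10 were. Upf1, the helicase at the center of the pathway, had differences of -0.60, -0.58 and -0.10. Smg1, the kinase that phosphorylates it, was at -0.89, -0.15 and 0.24. In pairs 1, 2 and 3 the decay factors had medians of -0.46, -0.30 and -0.14. The 5 member hosts had -0.18, 0.71 and -0.23, so the signs differed in pair 2 only. A link between them was not tested.

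**Figure D3:**
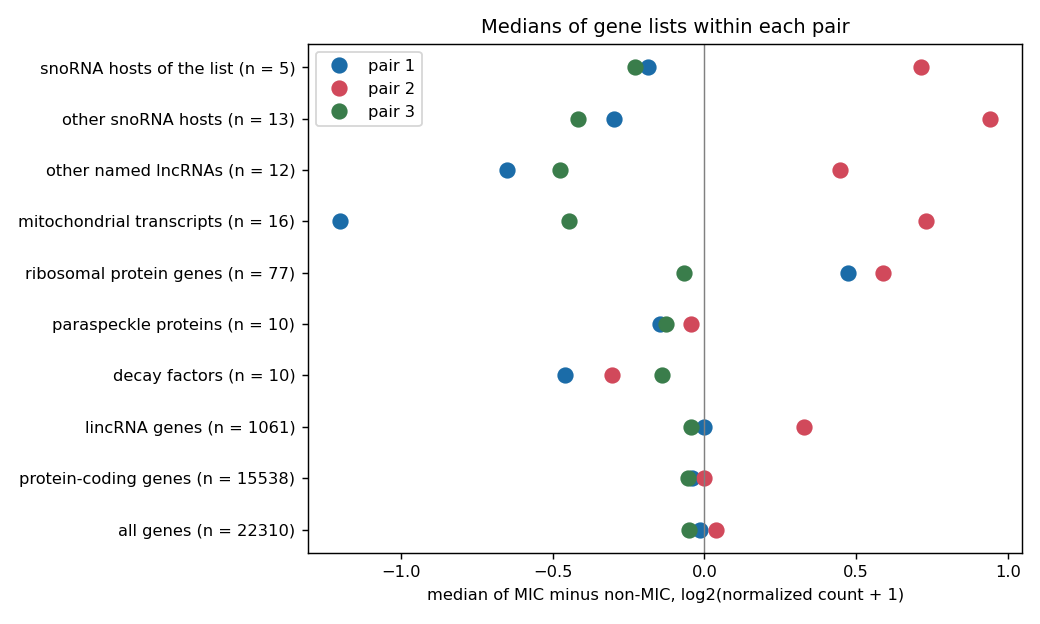
Median difference between the MIC and non-MIC library, in log2(normalized count + 1), in each pair for groups of genes. The 5 snoRNA hosts (0.71), the 13 other hosts (0.94) and the mitochondrial transcripts (0.73) stand above 0 in pair 2 and below 0 in pairs 1 and 3, while all genes stay between -0.05 and 0.04.

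The order seen in Malat1 and Neat1 extended to other named long noncoding RNAs. Of 12 further ones in the table, 12 were higher in the MIC library of pair 2 (11 under TMM, beside 53.5% and 44.0% of all genes), and 10 had the low, high, low order, or 8 under TMM. Their median log2 fold change was -0.19, with medians of -0.65, 0.45 and -0.48 over pairs 1, 2 and 3. Limma called 0 of them with or without the block. Mir17hg, the host of the miR-17 to miR-92 cluster, ran from -1.53 in pair 1 to 1.89 in pair 2, and Pvt1, the neighbor of Myc, from -0.09 to 1.04. Tug1 and Peg13 stayed within -0.46 and 0.37. Firre, an X-linked nuclear organizer RNA, and Xist, the RNA that silences an X chromosome, were the only other list members of this kind that edgeR with the block called, at -0.97 (adjusted p = 0.000826) and -0.87 (adjusted p = 0.0206). Neither was called by limma with the block. Xist stood at 47.8 and 38.0 in MIC 2 and non-MIC 2 and between 4423 and 18982 in the other libraries. Of the 1061 genes annotated as lincRNA, 17.3% had the order, beside 14.3% of protein-coding genes, and under TMM the shares were 13.5% and 8.48%.

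The share of reads moved in the same way. The 10 members took 0.0265%, 0.118% and 0.0777% of the recovered reads in MIC replicates 1 to 3 and 0.0443%, 0.0620% and 0.101% in non-MIC replicates 1 to 3. MIC 1 had the lowest share and MIC 2 the highest. The 16 transcripts of mitochondrial DNA took 0.663%, 2.28% and 1.60% in the MICs and 1.55%, 1.22% and 2.17% in the non-MICs, with the same libraries at either end, and 11 of the 16 had the low, high, low order. The summed level of 7 basal markers was highest in MIC 1 (404281) and lay between 23691 and 140300 in the other libraries. That of 7 fibroblast markers was 2154, 670 and 2003 in MIC replicates 1 to 3 and 1107, 739 and 585 in the non-MICs, so that MIC 1 and MIC 3 were high and MIC 2 was not, and Lum was at 0 in at least 1 library. The sum of 5 immune markers was highest in MIC 2 (1934) and next in non-MIC 2 (1094), with Ptprc, Adgre1 and Cd79a at 0 in at least 1 library. The part of these differences in the member values was not tested. Fewer cells of a type and less RNA per cell cannot be told apart in bulk samples.

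**Figure D4:**
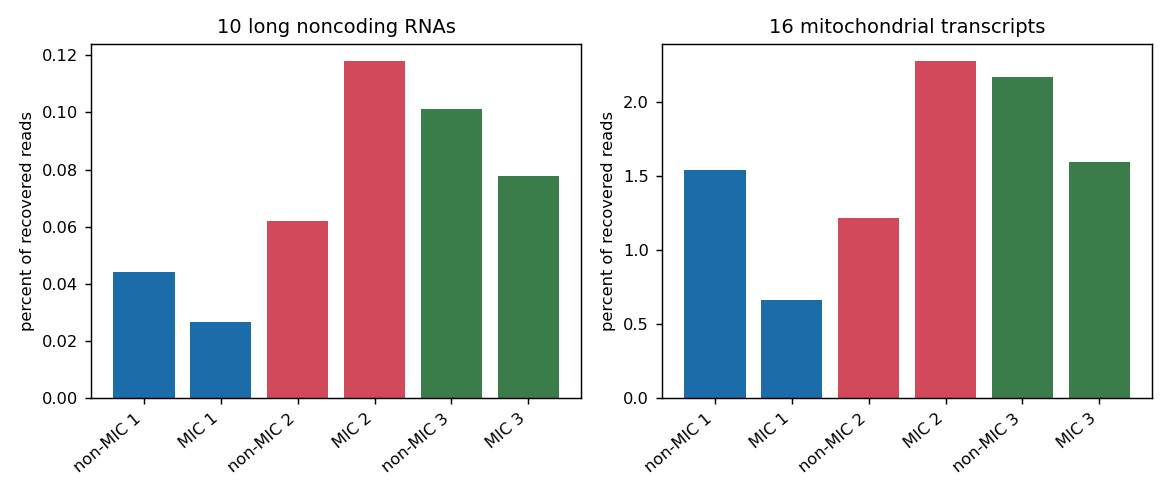
Share of recovered reads, in percent, taken by the 10 long noncoding RNAs (left) and by 16 mitochondrial transcripts (right) in each library, with bars from 0 and one color per replicate number. MIC 1 has the lowest bar (0.0265% and 0.663%) and MIC 2 the highest (0.118% and 2.28%) in both panels.

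Levels between genes were compared per length, as recovered reads scaled to library size and to each kilobase of merged exon (RPKM). On this scale Malat1 had a median over 6 libraries of 48.2 (range 9.83 to 79.4) and Gas5 45.6 (26.6 to 70.7), and the order of these neighbors was not settled, Malat1 being above Gas5 in 3 of 6 libraries. Snhg1 followed at 32.1, below Gas5 in all 6 and above Snhg8 in 5 of 6. Snhg8 (15.9), Epb41l4aos (13.4) and Snhg12 (9.72) formed the next group, in which each was above the following one in 5 and 4 of 6 libraries. Neat1, at 2.61, was below Snhg12 in all 6, and this measure spreads its reads over the whole long isoform. H19 was at 0.435, Kcnq1ot1 at 0.0388 over its unspliced length, and Meg3 at 0.00166. Neat1 was above H19 in 5 of 6 libraries, as was H19 above Kcnq1ot1, so these steps were not settled in every library. The merged exons filled the whole annotated span of Snhg1 (2969 bases), Snhg12 (2402) and Snhg8 (853), and 3760 of 4118 bases of Gas5. For Epb41l4aos they filled 430 of 1095 bases. Introns thus enter the length of some hosts more than of others, and the order of the genes depends in part on the annotation. The libraries were made with a poly(A)-selecting kit, and the main Malat1 transcript, the long Neat1 isoform and unspliced RNAs may be captured less well than ordinary mRNA, so these are levels of captured RNA.

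**Figure D5:**
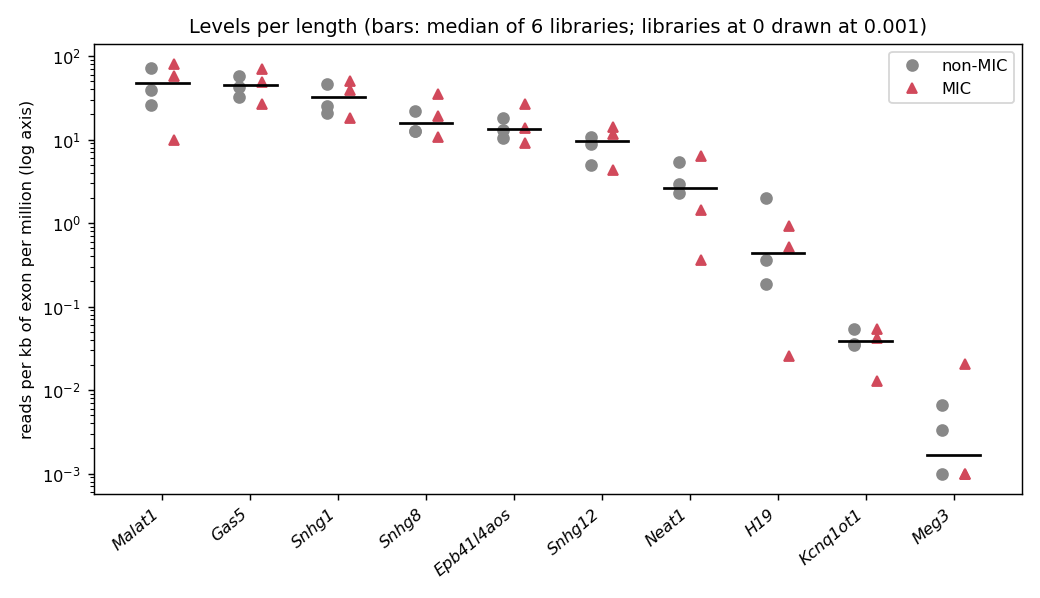
Level of each long noncoding RNA per length on a log axis, in RPKM over merged exons, with one point per library and the median of 6. Malat1 and Gas5 overlap at the top (medians 48.2 and 45.6), and the imprinted H19, Kcnq1ot1 and Meg3 have the lowest medians, Meg3 with libraries at 0.

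For the widest-ranging member of each kind, the genes with the nearest profile were found by the root mean square distance of centered log2 values over 6 libraries, among the genes with at least 10 reads in every library. Nearest to Neat1 were A930004J17Rik (0.459), Gm43300 (0.471) and 1700109H08Rik (0.499), and Malat1 ranked 39. Nearest to H19 were Msln (0.675), C3 (0.695) and Pkd1l1 (0.718), all high in replicate 3 and low in replicate 2, as H19 was. Snhg12 had closer neighbors, Pygm (0.116), Taf7 (0.118) and Nt5e (0.147), with Snhg1 at rank 12 and Gas5 at rank 13. These distances are descriptions over 6 libraries that share their replicate numbers.

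The sorting gate was seen in the same table. Thy1, which encodes CD90, stood at 1509, 301 and 755 in the MICs and at 16.9, 21.1 and 12.6 in the non-MICs (log2 fold change 5.32). It was not called by limma without the block (adjusted p = 0.816) and was called with it (adjusted p = 5.31e-05), so the fit without the block did not call even a difference of this size. Krt5, Acta2 and Myh11, genes of basal and smooth muscle cells, were the other listed genes that limma with the block called, all higher in MICs. Besides Neat1, Peg3, Firre and Xist, edgeR with the block added Trp63, Col1a2 and Dcn as higher in MICs and Elf5, a luminal transcription factor, as lower (log2 fold change -1.11). Of the 7 basal markers, 3 were lower in MICs in pair 2: Krt14 (-0.90), Krt17 (-0.12) and Oxtr (-0.67). These were called by neither of these fits. Cd24a, the marker of both gates, differed by -0.31 to 0.38 on the log2 scale within pairs. The luminal marker sum lay between 212239 and 700442 in all libraries and the endothelial sum between 15.9 and 51.8. Depth, as recovered reads, ran from 31467281 to 51759769 per library.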

How the data were processed

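RNA of 3 MIC and 3 non-MIC libraries was analysed, grouped by their labels. The members and the gene lists were chosen with earlier results of these data known. The deposited signal values are gene counts that the authors made with a stranded mRNA kit, scaled to the total of each library and filtered for expression in at least 3 of the 6 libraries. The study's methods name alignment with Bowtie2 to the GRCm38 transcriptome and the submitters' processing notes name STAR and HTSeq. Versions and strand settings are not given in the sources used here. Of the 22310 genes, 22161 were matched to GENCODE symbols.

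Dividing each value by what 1 read is worth in its library (0.676 to 1.11) gave whole reads for 99.99% to 100% of values, within 0.01 of a read, in all 31467281 to 51759769 per library. When the design was written a normalized unit was assumed, so limma 3.58.1 in R 4.3.3, with a trend, on log2(value + 1) over all genes and without a block is reported first, and fold changes on that scale understate those of low genes. P-values were adjusted by Benjamini-Hochberg at a threshold of 0.05. The recovered reads were fitted with edgeR 4.0.16 (quasi-likelihood) and DESeq2 1.42.0. The limma and edgeR fits were also run on simulated data. Their spread between replicates was smaller than that of most members, so that run does not show how the fits perform on the members.

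Same-numbered libraries deviated together from their group means (correlations of 0.573, 0.668 and 0.746 for replicates 1, 2 and 3, against -0.33 on average between different numbers), so each result is also given from a fit blocked on that number where it bears on a call. The text names the 10 members, the genes of the H19, Kcnq1ot1 and Meg3 loci in the table, the 2 highest and 2 lowest other snoRNA hosts, list genes called by a fit, the gate genes and the 3 nearest profiles of 3 members. Other genes named, such as those that illustrate a list, were chosen after their values were seen. An item of the lists is not reported here. Alternatives were quantile and TMM scaling, a pseudocount of 0.1 or 10, dropping genes below the median level, no trend, and leaving out libraries.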

Additional observations from a re-analysis of the deposited data

How the results depend on the processing

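With the replicate block, limma called 29 genes, edgeR 315 and DESeq2 133, and edgeR with a robust prior, added after seeing the data, called 318. DESeq2 without the block called 1, and the limma fit without the block called 0 with each single library left out. With a whole pair left out and the block kept (also added), 0 to 59 genes were called: 11 without pair 1, 59 without pair 2 and 0 without pair 3. The number of members called was 0 except for 1, Neat1, under edgeR with the block and under the blocked limma fit without pair 2. The block changed no other call among the members. The blocked edgeR fits with and without the robust prior, which differ in whether Neat1 is called, differ only in that prior on the spread.

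Direction was not stable for most members. Meg3 was above 0 at a pseudocount of 10 (0.14), under quantile scaling (0.025), edgeR (1.13), edgeR with the block and its robust form (0.79 in both) and DESeq2 (1.12), and Malat1 under edgeR (0.071) and DESeq2 (0.11). With single libraries left out, the log2 fold changes ranged from -0.81 to 0.69 for Malat1, -2.20 to -0.13 for Neat1, -1.91 to 0.42 for H19, -1.34 to 0.56 for Meg3, -0.79 to 0.23 for Kcnq1ot1, -0.24 to 0.46 for Gas5, -0.13 to 0.61 for Snhg1, -0.11 to 0.75 for Snhg12, -0.081 to 0.77 for Snhg8 and -0.26 to 0.50 for Epb41l4aos. With a pair left out and the block, they ranged from -0.86 to 0.35 for Malat1, -0.90 to 0.13 for Kcnq1ot1, -1.19 to 1.08 for Meg3, -0.25 to 0.25 for Gas5, -0.22 to 0.39 for Snhg1, -0.022 to 0.43 for Snhg12 and -0.055 to 0.32 for Epb41l4aos, while H19 (-1.74 to -0.29), Neat1 (-2.28 to -0.40) and Snhg8 (0.18 to 0.64) kept their sign. Neat1 stayed below 0 in each alternative run. The median of the other imprinted genes was -0.30 without non-MIC replicate 1 and 0.10 without non-MIC replicate 3. Medians of other lists turned sign with 1 library left out: the 5 member hosts ran from -0.13 (without MIC replicate 2) to 0.46 (without MIC replicate 1) and were at -0.056 without non-MIC replicate 1, the other hosts from -0.27 to 0.28, the other lncRNAs from -0.53 to 0.070 and lincRNA genes from -0.074 to 0.12. Those of decay factors, paraspeckle proteins and ribosomal protein genes kept their sign. At 0 to 19 reads, as for Meg3, depth limits what can be seen.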
